A study of Homo sapiens with 121 samples.

Results

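A set of 36 genes of homologous recombination and of the DNA damage checkpoint was read from the expression table of single human embryonic stem cells (hESCs), out of 25610 genes in all. The 36 were taken from a list by symbol, and every one of them had a row. No expression value was a criterion of membership, but the list was chosen with earlier results of these data known. They were sorted into 6 roles: 9 damage kinases, sensors and mediators, 4 genes of end resection, 11 genes of strand exchange and its mediators, 5 genes of helicases and dissolution, 3 subunits of the single-strand binding complex and 4 genes of the Fanconi anemia pathway.

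Homologous recombination repairs a broken chromosome by copying the intact sister. ATM and ATR are the kinases that start the response, the MRE11A-RAD50-NBN complex finds and trims the break, RPA covers the single strand that trimming exposes, and BRCA2 with its helpers prepares that strand for the search for the sister sequence. BLM, TOP3A and RMI1 take the joined molecules apart. The same factors act at chromosome ends: an unprotected telomere is read as a break by ATM, and telomeres can be copied from each other by recombination.

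The cells came from WA26, an established hESC line grown without feeder cells in E8 medium on Matrigel. In scT&R-seq, mRNA and genomic DNA of the same lysed cell are separated, the mRNA is sequenced and the DNA is used for a qPCR of telomere against Alu repeats, which gives the T/R ratio. The labels put 81 cells in the long, 25 in the medium and 15 in the short telomere group, with borders at T/R ratios of 1 and 0.4. No treatment or genetic change is named for any group. No culture, plate or batch is named for a cell, so each group counts as 1 sample, all values below describe these cells and carry no p-value.

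The table holds values named TPM, which sum to nearly the same total in each cell, and read depth could not be recovered from them. Whether they are scaled for transcript length is not stated. Values were compared as log2(TPM + 1), and a gene was called detected above TPM 1. Detected genes ran from 2030 to 11515 per cell. Cells with more than 8000 detected genes are called gene-rich here (68 cells: 51 long, 14 medium and 3 short), the others gene-poor (53 cells: 30 long, 11 medium and 12 short), a border set with the values known. POU5F1, LIN28A and DPPA4 were detected in every cell and the other pluripotent cell markers checked in at least 79.3%. The 5 endoderm markers were detected in at most 6.61% of cells and the 5 mesoderm markers in at most 38.0% (MIXL1). Of 4 ectoderm markers NES was detected in 82.6% and OTX2 in 57.0%, and of 6 fibroblast markers THY1 in 94.2% and COL1A2 in 63.6%, while LUM was listed at 0 in every cell. TBP, a general transcription factor that every cell needs, was listed at 0 in 20 cells, so a 0 in this table is written below as listed at 0 and not as absence.

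Short telomere cells had fewer of the 36 genes detected, and the summed TPM of the 36 was close between groups. Of the 36, 26.3 ± 7.70 (SD, n = 81) were detected in a long, 25.5 ± 7.53 (SD, n = 25) in a medium and 16.7 ± 8.98 (SD, n = 15) in a short telomere cell. The range was 4 to 35 in long, 12 to 34 in medium and 5 to 34 in short cells, so the ranges overlapped widely. The medians were 29 in long, 29 in medium and 16 in short cells. The summed TPM of the 36 had a median of 836 in long, 803 in medium and 816 in short cells.

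The number of detected members followed the number of detected genes, with a Pearson correlation of 0.952 over the 121 cells (Spearman's rho 0.939). Gene-rich cells had 31.3 ± 2.22 members detected (SD, n = 68) and gene-poor cells 16.9 ± 6.07 (SD, n = 53). Among gene-rich cells the means were 31.5 in long, 30.9 in medium and 30.3 in short cells, and among gene-poor cells 17.6, 18.7 and 13.2. Long cells exceeded short cells by 9.67 members over all cells and 1.12 among gene-rich cells. The T/R ratio and the number of detected members correlated at 0.0391 (Pearson; rho 0.122).

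**Figure D1:**
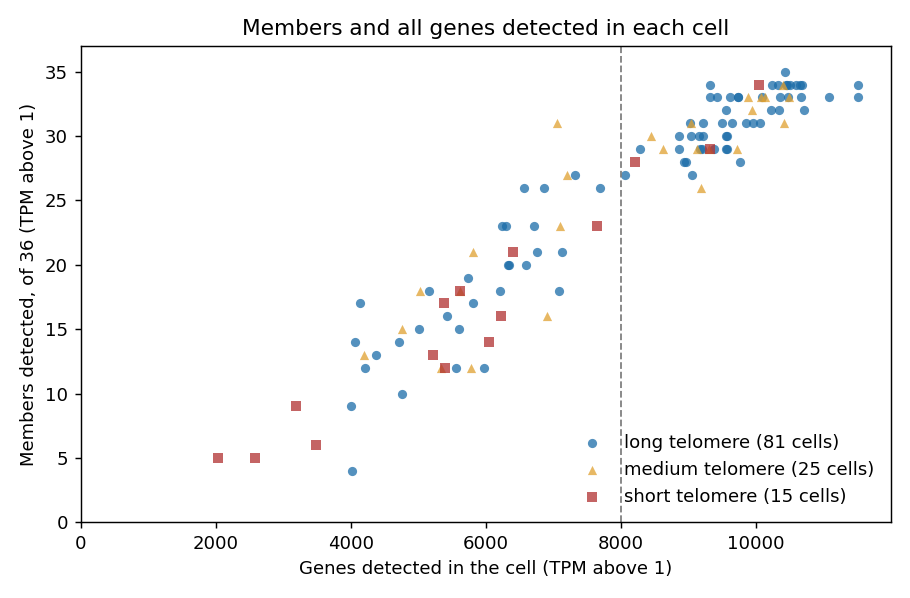
Each point is 1 cell, with the genes detected on the x axis and the members detected, of 36, on the y axis, both above TPM 1; colors and shapes give the telomere group, and the dashed line marks 8000 detected genes. The groups lie along 1 band, and 12 of the 15 short telomere cells are left of the line.

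RPA3 and RPA2 of the single-strand binding complex had the highest mean TPM, and RTEL1, XRCC3 and RAD51D the lowest. The order of genes rests on TPM being scaled for length, which was not tested. Mean TPM over all cells was above 50 for 4 members (RPA3, RPA2, RAD51C and CHEK2) and under 10 for 14. In gene-rich cells, 8 members were detected in every cell: CHEK1, RNF168, RAD50, RPA1, RPA2, RPA3, FANCD2 and FANCI. In gene-poor cells only RPA3 was detected in more than 90% of cells. RTEL1, a helicase that unwinds telomere loops, was detected in 30.9% of long, 28.0% of medium and 6.67% of short telomere cells and had a mean TPM of 0.944, under the mean TPM of 1 that a gene needed to enter the comparisons of groups, which therefore cover 35 members. Its long minus short difference was 0.56 and is not counted below.

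**Figure D2:**
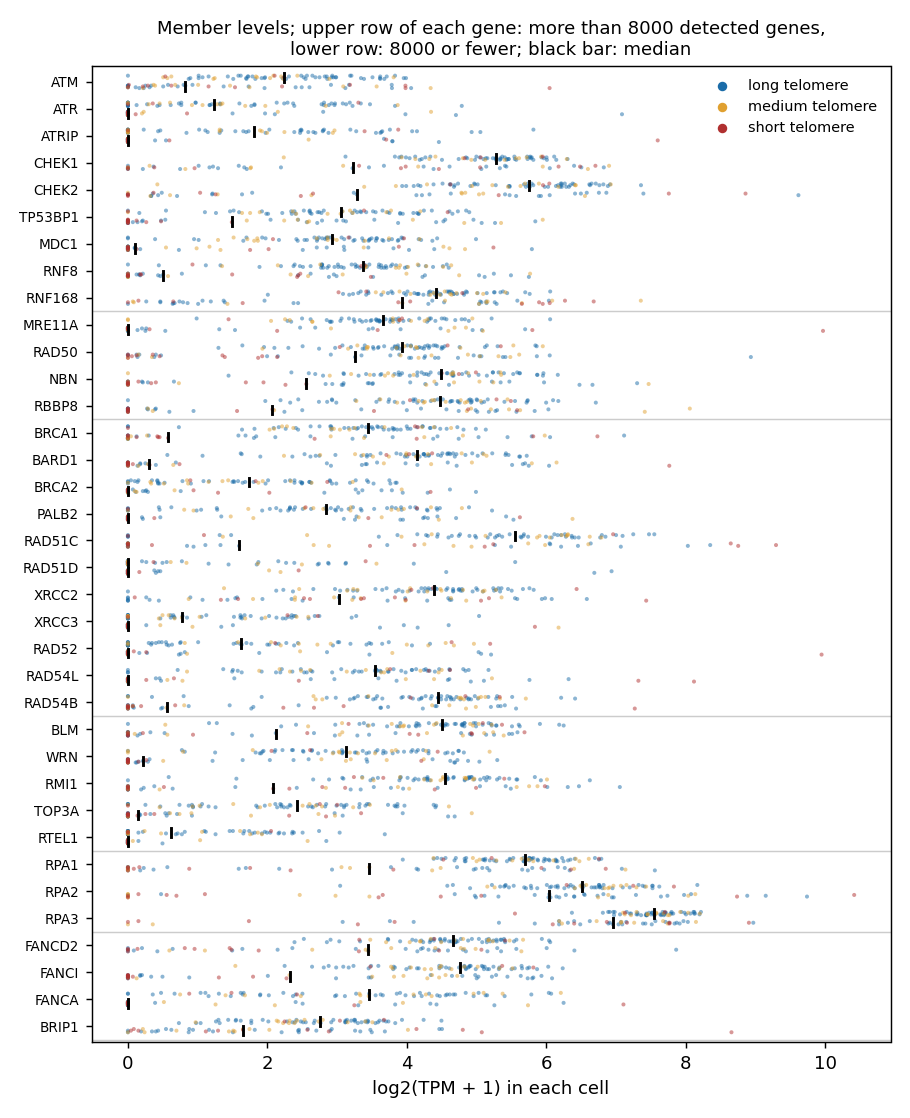
Each point is 1 cell, at its log2(TPM + 1) for the gene named on the y axis; the upper row of a gene holds gene-rich and the lower row gene-poor cells, black bars are medians, colors give the telomere group and horizontal lines part the 6 roles. Medians of gene-poor cells lie at or left of those of gene-rich cells, with a few gene-poor cells far to the right.

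Over all cells, long telomere cells had higher mean log2(TPM + 1) than short telomere cells for 32 of 35 members, with a median difference of 0.96 against 0.70 for the 13439 genes tested. A gene was called past a difference of 1 on the log2 scale. Of the 35 members, 17 were called higher in long (48.6%), where 38.9% of all genes were. None was called higher in short, where 3.75% of all genes were. With a mean TPM of at least 10 required, the share of members called higher in long was under that of all genes. The ranges of long and short telomere cells overlapped for all 36 members. The SD across cells of a group ran from 0.86 to 3.61 on this scale, and the difference exceeded the SD of both groups for 5 members, TP53BP1, RAD50, NBN, WRN and FANCI. The spread is given below also as a share of pairs: each long cell was set against each short cell, and long was the higher one in 45.2% to 82.3% of these pairs over the members.

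Among damage kinases, sensors and mediators, 3 of 9 were called higher in long (38.9% of all genes were): CHEK2, TP53BP1 and RNF8. TP53BP1, which holds back the trimming of broken ends, had a TPM of 0 to 56.45 with a median of 5.85 in long, 0 to 60.85 with a median of 5.06 in medium and 0 to 23.03 with a median of 0 in short cells. It was detected in 80.2% of long, 88.0% of medium and 20.0% of short telomere cells, its difference between long and short was 1.99, and long was higher in 82.3% of pairs. CHEK2, the kinase that ATM activates, had medians of 50.35, 29.64 and 4.58 TPM in the same order and a difference of 1.92, with long higher in 70.2% of pairs.

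ATM and ATR, the kinases at the top of the pathway, and CHEK1 were not called. ATM had median TPM values of 2.91 (long), 2.35 (medium) and 1.90 (short). Its difference between long and short was 0.13, with long higher in 55.6% of pairs. Without short telomere cell 6, described below, the difference was 0.43. That cell was chosen after the values were seen, and the share of all genes called without it was not computed. No long telomere cell was left out in the same way. CHEK1, the kinase that ATR activates, had medians of 33.29, 20.28 and 21.02 TPM and a difference of 0.52 (0.25 without that cell). ATR was detected in 44.4% of long, 40.0% of medium and 6.67% of short telomere cells, and its difference of 0.96 lay just under the threshold, with long higher in 68.6% of pairs. RNF168, a ubiquitin ligase that marks chromatin around breaks, was at -0.15, with medians of 18.89, 22.41 and 15.56 TPM.

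Of the 4 genes of end resection, RAD50, NBN and RBBP8 were called higher in long (38.9% of all genes were, not matched in level). RAD50, the ATPase of the trimming complex (hg19 chr5:131891711-131982041), had a TPM of 0 to 488.89 with a median of 13.91 in long and 0 to 39.74 with a median of 1.56 in short cells, a difference of 2.15. NBN, the subunit that binds ATM, had median TPM values of 17.54 (long), 16.13 (medium) and 0.32 (short) and a difference of 2.30, with long higher in 79.7% of pairs. RBBP8, which encodes CtIP and starts trimming, was at 1.42. MRE11A, the nuclease of the same complex, was at 0.76, with medians of 9.95, 5.26 and 0.24 TPM, and was not called. Without short telomere cell 6 it was at 1.32, past the threshold.

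Of the 11 genes of strand exchange, BARD1, PALB2 and RAD54B were called higher in long (38.9% of all genes were). The median difference of the role was 0.56, under that of all genes. BARD1, the partner of BRCA1, had median TPM values of 14.81 (long), 12.39 (medium) and 0 (short) and a difference of 1.93. BRCA1 was at 0.93 (1.08 without short telomere cell 6) and BRCA2 at 0.70, with BRCA2 detected in 55.6% of long, 36.0% of medium and 33.3% of short telomere cells. XRCC2, which acts in a complex with RAD51C and RAD51D, was detected in 87.7% of long, 96.0% of medium and 93.3% of short telomere cells, with medians of 18.18, 14.80 and 13.22 TPM and a difference of 0.02 (0.28 without short telomere cell 6). RAD52, another mediator of strand exchange, had group medians of 0.40, 1.99 and 0 TPM and a difference of -0.29, which turned to 0.32 without short telomere cell 6.

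All 3 subunits of RPA were called higher in long, where 38.9% of all genes were. Also called higher in long were 3 of 4 Fanconi anemia genes and 2 of the 4 tested helicase and dissolution genes. The share of all genes is not matched to these roles in level. RPA2 had median TPM values of 83.40 (long), 94.30 (medium) and 11.60 (short) and a difference of 2.29. RPA1 was at 1.87, with medians of 43.52, 32.00 and 4.04 TPM. RPA3 was at 1.90 and its lowest value in a long telomere cell was 7.46 TPM, the only member detected in every cell of that group. FANCI (hg19 chr15:89787176-89860492), the partner of FANCD2 in the clamp that marks crosslinks, had the highest difference of the 35 members, 2.67, with median TPM values of 25.92 (long), 19.38 (medium) and 0 (short). FANCD2 was at 1.97 and FANCA, of the core complex that modifies this clamp, at 1.41. BRIP1, a helicase that binds BRCA1, was at -0.34, the lowest of the 35, and at 0.08 without short telomere cell 6. WRN, a helicase known for its part at telomeres, was at 1.74, and RMI1 at 1.01, under the threshold at 0.82 without the same cell.

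Among gene-rich cells the median long minus short difference was -0.028 for the members and 0.08 for all genes. RAD51C and FANCA were called higher in long, 2 of 35 members against 11.4% of all genes, and RAD52 and RAD54L higher in short, 2 of 35 against 9.37%. The short side rests on 3 cells, named here as 1, 3 and 10. RAD51C, a mediator of strand exchange, had 123.52 TPM in cell 1, 1.13 in cell 3 and was listed at 0 in cell 10, and the gene-rich long telomere cells ran from 0 to 186.58 with a median of 40.33. Its difference of 2.35 thus came from 2 of the 3 cells. RAD52 had 23.99, 3.32 and 35.67 TPM in the 3 cells and a median of 0.69 with a highest value of 19.16 in gene-rich long telomere cells, a difference of -2.60. RAD54L, a motor protein of strand exchange, had 12.57, 23.60 and 18.92 TPM against a long median of 10.66, a difference of -1.12. FANCA had 1.80, 0.84 and 4.37 TPM against a long median of 10.74.

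RAD50, NBN and FANCI, which had some of the largest differences over all cells, were at -0.48, -0.36 and -0.35 among gene-rich cells. RAD50 had 23.01, 39.74 and 7.22 TPM in the 3 short telomere cells against a median of 13.91 in gene-rich long telomere cells, and NBN had 30.82, 21.66 and 25.86 against 21.11. FANCI had 40.32, 10.14 and 55.35 TPM against a median of 27.47. The 3 cells lay within the range of the gene-rich long telomere cells for each of these genes.

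**Figure D3:**
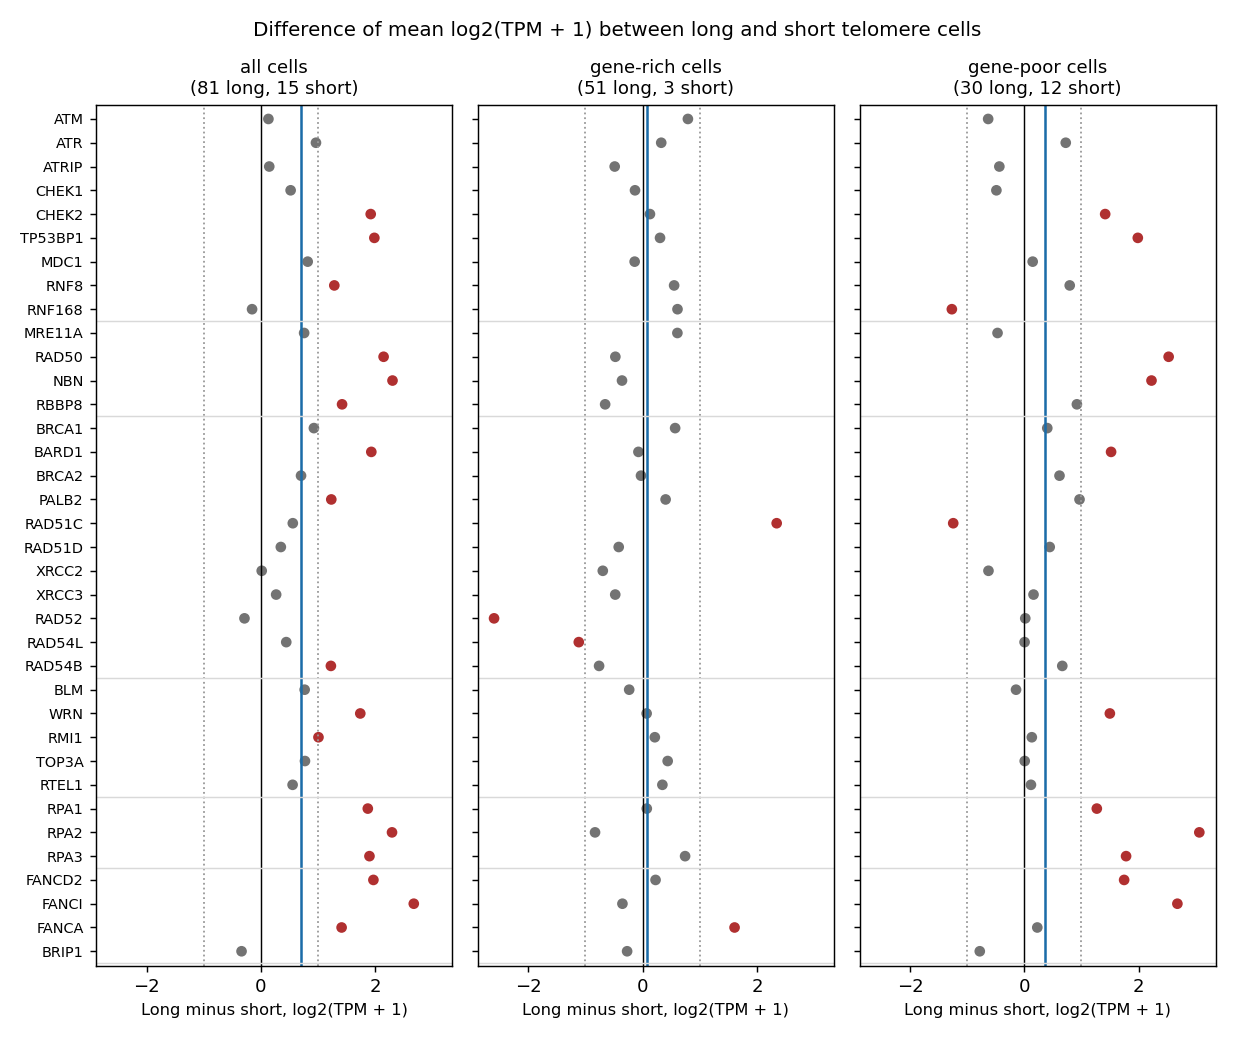
The x axis is the difference of mean log2(TPM + 1), long minus short, for each member on the y axis, over all cells (left), gene-rich cells (middle) and gene-poor cells (right); red points are past a difference of 1, dotted lines mark that threshold and the blue line is the median of all genes tested. In the middle panel most points lie between the dotted lines.

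Among gene-poor cells, 30 long and 12 short, the median difference was 0.44 for the members and 0.37 for all genes. There, 11 members were called higher in long (26.4% of all genes were): CHEK2, TP53BP1, RAD50, NBN, BARD1, WRN, RPA1, RPA2, RPA3, FANCD2 and FANCI. These 11 were all among the 17 called over all cells. RNF168 and RAD51C were called higher in short (7.37% of all genes were), at -1.27 and -1.24. RAD51C thus had opposite signs in the gene-rich and the gene-poor set. Its gene-poor medians were 0.86 TPM in long and 13.19 in short cells.

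For 4 members, the highest of the 12 gene-poor short telomere cells lay under the median of the 30 gene-poor long telomere cells. They are TP53BP1, RAD50, NBN and FANCI, 4 of 35 members (11.4%), while 1.21% of the 13439 genes met the same rule. The rule was chosen after the values were seen. A gene detected in few gene-poor long telomere cells can hardly meet it, because its long median is then too low. The 13439 genes were not matched to the members in level, so the part of level in this contrast was not tested. RAD50 reached at most 3.41 TPM in a gene-poor short telomere cell, against a median of 14.62 in gene-poor long and 19.46 in gene-poor medium telomere cells. NBN reached at most 4.89 TPM, against medians of 8.70 and 18.42. FANCI reached at most 3.84 TPM, against medians of 14.77 and 14.49. TP53BP1 reached at most 1.81 TPM, against medians of 4.68 and 4.96, and was detected in 1 of the 12 short telomere cells.

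Long telomere cells of the gene-poor set had a median of 5889 detected genes and short telomere cells 5387. Without the 4 cells with under 4000 detected genes, all of them in the short group, the short median was 5833. The same 4 members then met the rule, where 2.55% of all genes did, again not matched in level. The part that the number of detected genes plays in these values was otherwise not tested.

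Long and medium telomere cells were close. The median difference was 0.16 for the members and 0.10 for all genes, and it exceeded the SD of both groups for no member. RPA2 was called higher in long, at 1.02, where 0.893% of all genes were called, and no member was called higher in medium, where 0.387% of all genes were. The RPA2 medians ran the other way, 83.40 TPM in long and 94.30 in medium telomere cells. RPA2 was detected in 97.5% of long and 84.0% of medium telomere cells. Among gene-rich cells no member was called higher in long (0.967% of all genes were) and RAD52 was called higher in medium, at -1.27 (0.677% of all genes were). Medium against short telomere cells gave 17 members called higher in medium (33.8% of all genes were) and none higher in short (4.11% of all genes were), with a median difference of 0.92 for the members and 0.60 for all genes. This comparison shares the short telomere cells with the first.

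Single gene-poor cells held very high values of some members. The highest value of 33 of the 36 members was in a gene-poor cell (33 of the 35 tested, 94.3%, where 86.8% of all genes tested had theirs). Short telomere cell 6, with 6046 detected genes, held the highest value of 6 members. MRE11A was at 1002.90 TPM in this cell and at most 65.56 in any other. RAD52 was at 988.75 TPM in this cell and at most 36.00 in any other, so that 66.3% of all RAD52 TPM in the table came from it. BRIP1 was at 402.98 TPM against at most 32.74, and the remaining 3 were ATM, XRCC2 and RAD54B. The cell also held the highest value of 11.2% of all genes tested, 1509 in number, so high single values were not limited to these genes. Long telomere cell 4, with 4366 detected genes, held the highest value of ATR, CHEK2, MDC1 and RAD50, with RAD50 at 488.89 TPM against at most 65.30 elsewhere.

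The summed TPM of the members in the short group was 957 ± 741 (SD, n = 15) with short telomere cell 6 and 818 ± 528 (SD, n = 14) without it, with medians of 816 and 729. In long telomere cells it was 842 ± 270 (SD, n = 81).

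The members' correlations with the T/R ratio itself were set beside those of all genes. Pearson's correlation of TPM with the ratio over 121 cells had a median of -0.01 over the 36 members and 0.01 over all genes, with 17 of 36 members (all genes 53.2%) above 0. It ran from -0.23 for RNF168 to 0.26 for FANCD2, and WRN was at 0.25. Spearman's rho had a median of 0.08 over the members and 0.07 over all genes, with 30 of 36 members (all genes 75.5%) above 0, and WRN had the highest rho, 0.23. The points share library and number of detected genes, so the coefficients are descriptions.

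The coefficients differed between the sets of cells. In gene-rich cells, MRE11A had the highest Pearson correlation, 0.39 (rho 0.26), and RAD52 the lowest, -0.41 (rho -0.25). In gene-poor cells, RPA2 had the highest rho, 0.47 (Pearson 0.16), and its rho in gene-rich cells was -0.26. RNF168 had a rho of -0.27 in gene-poor and 0.11 in gene-rich cells. Within long telomere cells alone, 4 of 36 members had a rho above 0 (median -0.12, all genes -0.07), and within short telomere cells 32 of 36 had (median 0.36, all genes 0.27). The sign was thus that of all genes in either group.

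**Figure D4:**
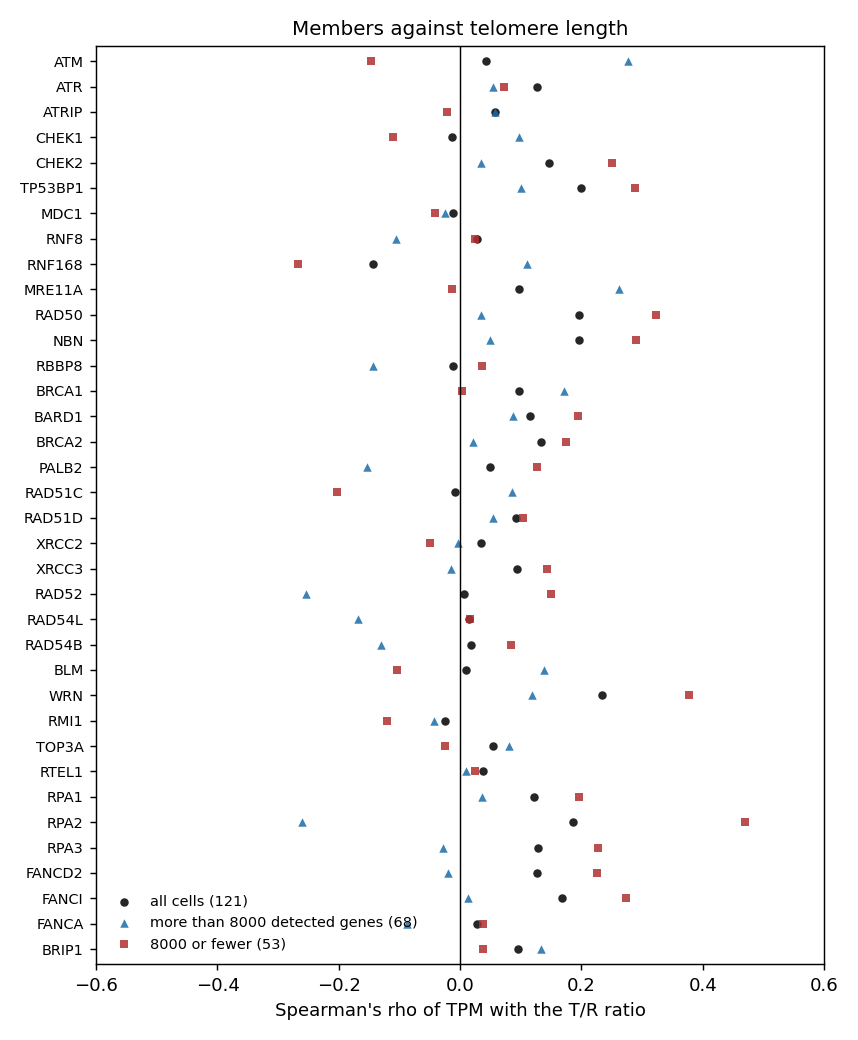
The x axis is Spearman's rho of TPM with the T/R ratio for each member on the y axis; black points are all 121 cells, blue triangles the 68 gene-rich and red squares the 53 gene-poor cells. Most black points lie between 0 and 0.23. For many members blue and red lie on opposite sides of 0, among them RPA2, RNF168, RAD51C, ATM and RAD52.

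In gene-rich cells, correlations between subunits of the same complex were close to those between other members. Over gene-rich cells, the 17 pairs of partners had a median rho of 0.03 and all 630 pairs of members 0.04. The highest pairs of partners were RMI1 with TOP3A at 0.30, BLM with RMI1 at 0.27 and FANCD2 with FANCI at 0.26, so the dissolution complex and the FANCD2-FANCI clamp led the list. BRCA1 with BARD1 was at 0.03, RAD50 with NBN at 0.03, BRCA2 with PALB2 at -0.05 and RAD51C with RAD51D at -0.16. Among all pairs the highest were NBN with FANCD2 at 0.41, TOP3A with RPA1 at 0.39, BRCA2 with FANCD2 at 0.36 and BLM with FANCD2 at 0.35. The lowest was ATRIP with RAD50, at -0.32. In gene-poor cells the median rho was 0.15 for partners and 0.07 for the other 613 pairs. FANCD2 with FANCI was there at 0.46 and BLM with FANCD2 at 0.43. Values of 0.4 or less in single cells with many entries at 0 are weak relations.

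**Figure D5:**
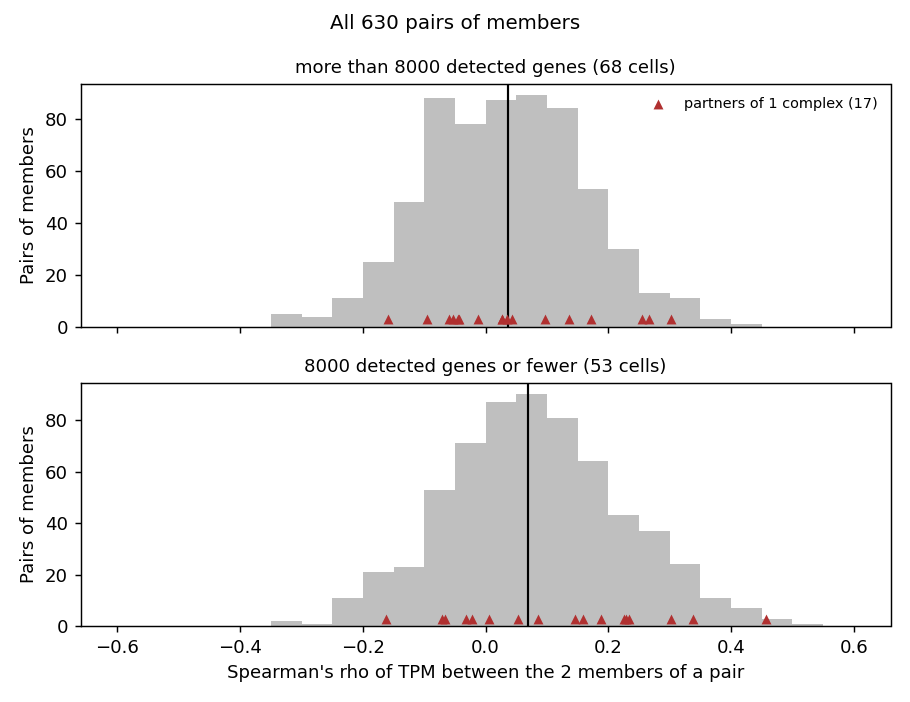
The x axis is Spearman's rho of TPM between the members of a pair and the y axis the number of pairs, for gene-rich cells (top) and gene-poor cells (bottom); red triangles mark the 17 pairs of partners at an arbitrary height and the black line is the median of all 630 pairs. At the top the triangles run from -0.16 to 0.30 and all pairs from -0.32 to 0.41. At the bottom the triangles run from -0.16 to 0.46 and all pairs from -0.35 to 0.50.

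Sequences upstream of the members were searched for motifs of cell cycle promoters. RefSeq sequences of the 250 bases before a start site on GRCh38.p14 were matched for 30 of the 36 members, with 42 start sites. RAD54B, NBN, WRN, RPA2, RPA3 and FANCI had none. A member with several start sites enters once for each of them. The motifs were CCAAT, to which NF-Y binds, TTTNNCGC of the E2F type and TTTGAA of the CHR type, each on both strands. CCAAT or its complement was found in 22 of 42 member sequences (52.4%) and in 32.0% of all 35116 sequences. Counted by gene, 17 of 30 members held it, and the share of all genes was not computed. The E2F type motif was found in 4 of 42 (9.52%, all sequences 5.92%) and the CHR type motif in 3 of 42 (7.14%, all sequences 13.3%). Below are BLM and FANCD2, the pair high in both sets of cells, then CHEK2, the member with 3 CCAAT matches and an E2F type match, and XRCC3, the member with the most CCAAT matches. Capitals mark every match, and each sequence ends at the base before the start site. No matches overlap in these 4.
BLM, chr15:90717096-90717345, plus strand: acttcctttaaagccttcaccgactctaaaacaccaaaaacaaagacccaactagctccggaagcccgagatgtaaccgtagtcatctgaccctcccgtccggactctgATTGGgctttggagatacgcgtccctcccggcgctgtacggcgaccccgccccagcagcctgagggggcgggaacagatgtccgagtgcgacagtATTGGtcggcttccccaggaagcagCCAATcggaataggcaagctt
FANCD2, chr3:10026187-10026436, plus strand: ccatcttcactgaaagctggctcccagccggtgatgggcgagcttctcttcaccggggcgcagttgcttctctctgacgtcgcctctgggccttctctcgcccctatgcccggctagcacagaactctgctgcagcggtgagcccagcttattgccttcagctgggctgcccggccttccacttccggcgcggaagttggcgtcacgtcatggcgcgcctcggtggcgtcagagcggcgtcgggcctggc
CHEK2, chr22:28741821-28742070, minus strand: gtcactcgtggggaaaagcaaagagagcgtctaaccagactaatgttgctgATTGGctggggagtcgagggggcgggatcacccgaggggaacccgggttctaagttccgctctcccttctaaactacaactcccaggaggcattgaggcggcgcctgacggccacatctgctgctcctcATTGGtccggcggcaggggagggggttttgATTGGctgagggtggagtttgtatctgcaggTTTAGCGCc
XRCC3, chr14:103715452-103715701, minus strand: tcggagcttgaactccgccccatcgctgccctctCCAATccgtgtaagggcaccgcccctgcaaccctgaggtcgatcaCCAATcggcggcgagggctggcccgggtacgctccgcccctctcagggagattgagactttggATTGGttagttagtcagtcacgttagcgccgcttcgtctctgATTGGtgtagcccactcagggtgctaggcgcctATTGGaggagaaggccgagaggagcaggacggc

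BLM held 3 CCAAT matches, the nearest from base -21 to -17 counted from the start site, and FANCD2 held none of the 3 motifs. CHEK2 held its E2F type match from base -9 to -2. XRCC3, with 5 CCAAT matches, was among the lowest members in level, detected in 47.1% of gene-rich cells, while CHEK2 was detected in 98.5%. A match is a run of letters and not a measured binding site.

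The members were also compared with the cell cycle, since recombination is used after a sister has been made. Scores were the mean log2(TPM + 1) of 33 S-phase genes and of 53 genes of G2 and mitosis, none of them a member. In gene-rich cells, the 2 scores had a Spearman correlation of -0.55 with each other, and BRIP1 alone of 35 members had a rho above 0.3 with the S-phase score, 0.37 (1.70% of all genes did). WRN alone had a rho above 0.3 with the G2 and mitosis score, 0.32 (3.90% of all genes did). In gene-poor cells, 11 of 35 members were above 0.3 with the S-phase score (21.2% of all genes were) and 11 with the G2 and mitosis score (19.7% of all genes were). FANCD2 and FANCI had the highest S-phase values there, 0.60 and 0.59, and were both at 0.51 with the G2 and mitosis score. In the same cells FANCD2 had a rho of 0.43 and FANCI of 0.46 with the number of detected genes. The part of that number in the relations to the scores was not tested. The 2 scores had a rho of 0.52 with each other in gene-poor cells.

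Of 49 other genes of the same pathways, 48 passed the mean TPM of 1. Of these, 26 were called higher in long telomere cells (54.2%, all genes 38.9%) and 1 higher in short (all genes 3.75%), with a median difference of 1.05 (all genes 0.70). Among the highest were FANCL, the ubiquitin ligase of the Fanconi core complex, at 3.16 and TIPIN, a fork protection factor, at 2.62. The 3 lowest were DMC1, a recombinase of meiosis, at -1.49, CLSPN, which helps ATR activate CHEK1, at -0.79 and SHFM1, a small BRCA2 partner, at -0.42. Among gene-rich cells TIPIN was at -0.36 and FANCL at 0.86.

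The genes most like the members in gene-rich cells were sought among 6191 other genes that averaged at least 10 TPM, by rho with the mean log2(TPM + 1) of the 36. They were PSAT1 (0.53), BTF3L4 (0.52), PKNOX1 (0.52), ZFP42 and EIF4E (both 0.48), PPP1R12A, RBM47 and LDHA (each 0.48), MRPL42 and TTC37 (both 0.47), over 68 cells, and the median of all candidates was 0.07. ZFP42, a pluripotency marker, was at 0.54 in gene-poor cells. The mean of the 36 itself had a rho of 0.65 with the number of detected genes in gene-rich cells and 0.71 in gene-poor cells. The part of that number in this list of genes was not tested.

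Some values may hold reads of other loci. On GRCh37, 15 members are overlapped by a coding gene on the other strand, among them FANCI by POLG, RPA1 by SMYD4 and FANCA by ZNF276, and 6 by one on the same strand, among them ATRIP by TREX1 and CHEK1 by STT3A. Pseudogenes named after the gene are annotated for 9 members, 7 for CHEK2, 3 for RPA2 and 2 for RPA3. These overlaps are of whole gene spans, introns included, and overlap of exons was not tested. The protocol is not stated to mark strand, so reads from any shared exonic sequence cannot be told apart by strand. TPM of these genes is uncertain to that extent.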

How the data were processed

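Single WA26 cells were profiled by scT&R-seq. The methods name TopHat for alignment to hg19 and HTSeq for counting per RefGene gene; the submitters' processing notes list TopHat2 and RSEM. For the TPM table of their supplement, limited to genes past a count filter, the authors describe library size normalization with DESeq's estimateSizeFactorsForMatrix. They do not say this of the deposited table read here, in which 3957 genes are above 0 in 1 to 4 cells. The deposited values sum to 979828 to 997050 per cell, and the step that made them TPM is not given in the sources used here. The table was read for 25610 genes up to ZFR, and 1 row cut off part way was left out. T/R ratios were taken from the study's supplement and used for correlations only.

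Groups were compared by the difference of mean log2(TPM + 1), with a pseudocount of 1, over genes averaging at least 1 TPM. TPM gives no depth, so no counting error could be given. The members and gene lists were chosen with earlier results of these data known. Named were all 36 members, the 3 highest and 3 lowest other pathway genes by long-short difference and the 10 genes most like the members. A gene that this rule names is not reported here. Positions came from a GRCh37 annotation, promoters from RefSeq. Calculations were tested on simulated data and run in Python 3.11.15 with numpy 2.4.6 and pandas 2.3.3. Alternatives were other pseudocounts, group medians, other scalings and subsets of cells.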

Additional observations from a re-analysis of the deposited data

How the results depend on the processing

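A log2 difference was read as moved past 0.5, a correlation past 0.1, a number past 1.5 times, and a single member past the SD across cells. The number of members called higher in long than short cells, 17 as reported, was 27 with a pseudocount of 0.1 and 3 with 10. It was 2 in gene-rich cells (all genes 11.4%) and 11 in gene-poor cells (all genes 26.4%). In a subset chosen after seeing the data it was 8. This subset was the cells with all 8 genes that every cell uses detected, 58 long and 3 short. The median difference was then 1.71, 0.29, -0.028, 0.44 and 0.24, and 2.41 with group medians. Members called higher in short were 2 in gene-rich (all genes 9.37%) and 2 in gene-poor cells (all genes 7.37%). There was 1 without the 4 cells with under 4000 detected genes. Of the 2 gene-rich calls 1 and of the 8 calls 7 were among the 17. Without short telomere cell 6, also chosen after seeing the data, 18 were called, 16 of them among the 17 (RMI1 left, MRE11A and BRCA1 joined). Signs turned in gene-rich cells for RAD50 (-0.48), NBN (-0.36), RBBP8 (-0.65), BARD1 (-0.073), RAD54B (-0.76), RPA2 (-0.83) and FANCI (-0.35), and in the 58 and 3 cells for RAD50 (-0.34), RBBP8 (-0.027), RAD54B (-0.14) and RPA3 (-0.084). Among all alternatives, the share of all genes called was computed only for gene-rich cells, gene-poor cells and the mean TPM filters. The other numbers of members called are therefore not set against a background. Cause was not tested.

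Members called higher in long than medium were 3 with a pseudocount of 0.1. They were 0 with 10, in gene-rich cells (all genes 0.967%) and in cells with the 8 genes detected. Called higher in medium were 1 with group medians, 1 in gene-rich (2.86%, all genes 0.677%) and 2 in gene-poor cells (5.71%, all genes 5.2%). Called higher in medium than short were 1 with a pseudocount of 10, 2 in gene-rich (all genes 11.3%), 10 in gene-poor cells (all genes 26.1%) and 6 with the 8 genes detected. Called higher in short than medium were 1 after dividing by the median ratio, 4 in gene-rich cells (11.4%, all genes 11.6%), 1 in gene-poor cells (2.86%, all genes 7.95%) and 1 without the 4 cells. The median medium minus short difference was 1.71 with a pseudocount of 0.1, 0.21 with 10, 2.22 with group medians, -0.39 in gene-rich cells and -0.22 with the 8 genes detected. Of all genes, 24.8% were called higher in long than short with no filter and 66.5% at a mean TPM of at least 10. The share of members called was above that of all genes with no filter and under it at the higher mean TPM. The long minus short difference in members detected was 1.12 in gene-rich cells. Partners of a complex had a median rho of 0.24 over all cells, where all pairs had 0.19. No alternative moved the median correlation with the T/R ratio past its limit. No paired analysis was possible because the result comes from no test and cells have no replicate pairs.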
